A study of Mus musculus with 9 samples.

Results

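The cytosolic ribosomal protein genes were followed in cultured mouse macrophages across 2 treatments and a control. The set holds the 85 of 18049 genes in the deposited table whose symbol is Rpl or Rps plus a number, or is Rpsa, Rplp0, Rplp1, Rplp2 or Fau. Left out were 10 S6 kinase genes, 7 pseudogenes, the 2 like genes Rpl22l1 and Rpl7l1, and Rps19bp1, which encodes a protein that binds Rps19. Of the 85 genes, 34 belong to the small 40S subunit and 51 to the large 60S subunit, counting paralogs and retrogenes, and they lie on 20 chromosomes. Rack1 also encodes a part of the ribosome but carries another symbol, and it is described with the partner genes.

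RNA came from bone marrow-derived macrophages of C57BL/6 mice aged 8 weeks, grown in RPMI medium. The groups were 15d-PGJ2-PC at 1 µM, 15d-PGJ2 at 1 µM and a control in medium only, each for 6 h and each with 3 libraries. 15d-PGJ2 is a cyclopentenone prostaglandin, an electrophilic lipid that reacts with protein thiols. PC is not spelled out in the labels, and no structure is stated here. No group carries a genetic change in the labels. The replicates are not said to come from separate animals or cultures, so the p-values are set by library-to-library spread alone, which could be technical.

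Ribosomal proteins assemble with ribosomal RNA in nearly equal numbers into the 40S and 60S subunits, and their mRNAs are abundant in most cells. Most of these mRNAs start with a C followed by a run of pyrimidines, the 5′ terminal oligopyrimidine (TOP) motif, which lets mTORC1, through La-related protein 1, set how fast the whole class is translated. In macrophages this translational control is part of the response to nutrients, and some ribosomal proteins have roles outside the ribosome.

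The start sites of the genes the results turn on are printed here because this pyrimidine run is the sequence feature that defines the class. The windows come from RefSeq on GRCm38.p6 and run from 35 bases before the annotated start to 25 bases into the transcript, 5′ to 3′ on the gene's strand. Capitals mark the longest run of C or T in the window, the first where 2 are equally long. Fau (chr19:6057912-6057971, plus strand), Rps6 (chr4:86857343-86857402, minus strand) and Rpl13a (chr7:45128721-45128780, minus strand) hold long runs. Rps2 (chr17:24720028-24720087, plus strand) and Rpsa (chr9:120127731-120127790, plus strand) hold only short ones within the window. Genes of both kinds rose with 15d-PGJ2: Rps6 and Rpl13a as well as Rps2 and Rpsa, while Fau did not pass. Rps27l (chr9:66946051-66946110, plus strand, the first of its annotated starts) is a paralog that fell.
Fau: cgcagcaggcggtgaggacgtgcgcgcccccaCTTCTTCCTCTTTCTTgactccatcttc
Rps6: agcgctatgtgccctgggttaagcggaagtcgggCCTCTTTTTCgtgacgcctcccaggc
Rpl13a: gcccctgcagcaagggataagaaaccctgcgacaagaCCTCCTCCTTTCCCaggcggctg
Rps2: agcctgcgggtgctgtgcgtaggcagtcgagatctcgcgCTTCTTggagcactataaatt
Rpsa: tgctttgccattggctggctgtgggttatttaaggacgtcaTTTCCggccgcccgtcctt
Rps27l: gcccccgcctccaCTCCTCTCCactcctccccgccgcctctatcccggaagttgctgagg

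The longest run was 16 bases in Fau, 10 in Rps6, 14 in Rpl13a, 6 in Rps2, 5 in Rpsa and 9 in Rps27l. It began 1 base before the annotated start in Rps6 and 3 bases before it in Fau, whereas Rps27l held 2 runs of 9 bases, which began 22 and 12 bases before the start. Rpsa also held 2 runs of its longest length, and the second ended at the last base of the window, so its full length is not shown. RefSeq start sites were given for 64 of the 85 genes, with 76 starts in all. A run of at least 8 pyrimidines was present anywhere in the window of 39 of these starts, or 51.3%. The share was 25.7% for starts of mitochondrial ribosomal protein genes and 23.0% for starts of all tested genes. Runs wholly before the start, as in Rps27l, were counted too. The first base was a C at 30.3% of the ribosomal protein starts and at 14.5% of those of tested genes. The annotated start may lie some bases away from the start used in these cells. In the wider 300-base promoters, CCGGAAGT, the core that ETS factors such as GABP bind, was found on either strand at 15.8% of ribosomal protein starts, 16.2% of mitochondrial ribosomal protein starts and 8.64% of tested genes' starts. AAGATGGC, the core of the YY1 motif, was found on either strand at 10.5% of ribosomal protein starts, 16.2% of mitochondrial ribosomal protein starts and 4.81% of tested genes' starts. Neither motif contains the other, and a match is a description of the sequence, not a bound site.

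The libraries were those of macrophages by their markers. Adgre1 (F4/80) read 758 to 1022 FPKM and Cd68 490 to 672 FPKM over the 9 libraries. FPKM, fragments per kilobase of transcript and per fixed number of fragments sequenced, is the unit the authors deposited. Low values fall on steps that put the depth of each library at an estimated 5.30 to 5.38 M reads. Markers of other cells differed by group. Of 13 stromal markers, the summed level was 11.96 to 12.7 FPKM with 15d-PGJ2-PC, 14.5 to 18.6 FPKM with 15d-PGJ2 and 47.8 to 55.3 FPKM in controls. For 8 erythroid markers it was 0.27 to 0.91 FPKM with 15d-PGJ2-PC, 0.45 to 0.90 FPKM with 15d-PGJ2 and 23.8 to 33.4 FPKM in controls. For 13 skin markers it was 1.93 to 3.71 FPKM with 15d-PGJ2-PC, 2.32 to 4.14 FPKM with 15d-PGJ2 and 29.4 to 35.2 FPKM in controls, and 9 of the 13, Lor and Krt1 among them, were listed at 0 in all treated libraries. The 19 macrophage markers summed to 11590 to 12040 FPKM with 15d-PGJ2-PC, 9959 to 10590 FPKM with 15d-PGJ2 and 12830 to 13250 FPKM in controls. The part of these differences in the ribosomal protein values was not tested.

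Ribosomal protein mRNAs were among the most abundant in the cells. The median tested member averaged 661 FPKM over the 9 libraries, against 10.8 FPKM for the median tested gene. Of 142 genes averaging at least 500 FPKM in the whole table, 60 were ribosomal protein genes, as were 15 of the 49 at 1000 FPKM or above. Rplp1, an acidic protein of the stalk that recruits elongation factors, was highest. It read 2165, 2080.3 and 2089 FPKM with 15d-PGJ2-PC, 2249, 2259 and 2271 FPKM with 15d-PGJ2, and 2149, 2086 and 1889.9 FPKM in controls. Rpl41, a short, basic peptide at the interface of the subunits, averaged 1746 FPKM, and Fau, made as a fusion of a ubiquitin-like domain with Rps30, averaged 1387 FPKM. Rps29, a zinc-binding protein of the 40S head, averaged 1385 FPKM, and Fau and Rps29 overlapped with 15d-PGJ2-PC and in controls but not with 15d-PGJ2, where Fau was higher.

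At the low end, 3 genes stayed under 1 FPKM in every library and were not tested: Rpl10l and Rpl3l, paralogs known from testis and from muscle, and Rpl39l, a paralog known from testis. Rpl10l was listed at 0 in all 6 treated libraries and reached 0.33 FPKM in 1 control. Rpl3l reached 0.35 FPKM and Rpl39l 0.92 FPKM at most. The 82 tested genes therefore include all but these. Rps4l, a paralog of Rps4x, averaged 6.71 FPKM, and Rpl37rt, a retrogene of Rpl37, averaged 25.6 FPKM.

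Members with long annotated transcripts were among the lowest. Rps15a averaged 25.04 FPKM, Rpl22 94.1 FPKM and Rps20 133 FPKM, with annotated transcripts of 5179, 2051 and 3706 bases, while the median tested member had 791 bases. Summed with its pseudogene copies Rps15a-ps4 and Rps15a-ps6, Rps15a read 180 to 211 FPKM. The tested members other than paralogs and retrogenes spanned 85.4-fold in FPKM, with Rps15a alone at the low end, but 10-fold in estimated reads, 685 to 6873. Those reads were computed from FPKM, annotated length and estimated depth. Spearman's rho of level with length was -0.324 over 81 genes that share the same libraries. FPKM is a level per annotated length, and the lengths the authors used are not stated.

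**Figure D1:**
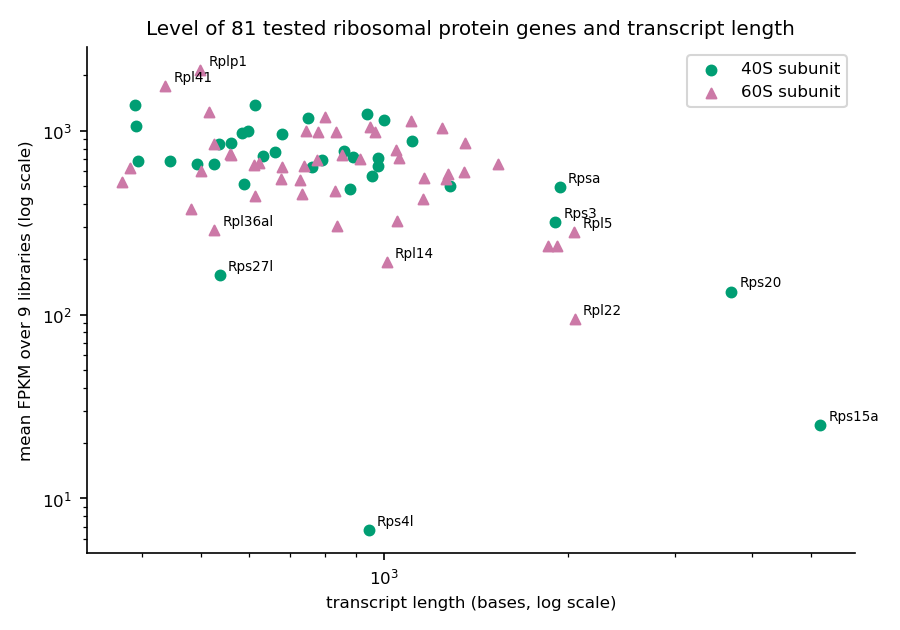
Mean FPKM over the 9 libraries against annotated transcript length for 81 tested ribosomal protein genes, both axes on a log scale, with circles for the 40S and triangles for the 60S subunit. Rplp1 lies highest at 2138 FPKM, and Rps15a, with 5179 bases and without its pseudogene copies, lies at 25.04 FPKM.

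The 85 genes together took 11.855%, 11.793% and 11.684% of all summed FPKM in the 3 libraries with 15d-PGJ2-PC, 12.027%, 12.074% and 11.981% in those with 15d-PGJ2, and 11.957%, 11.818% and 11.251% in controls. The group means were 11.777% ± 0.0868 with 15d-PGJ2-PC, 12.027% ± 0.0466 with 15d-PGJ2 and 11.675% ± 0.374 in controls (SD, n = 3 each). The 3 libraries with 15d-PGJ2 were above every other library, and the lowest value was that of control replicate 3. Without that library the control mean was 11.887%, above the mean with 15d-PGJ2-PC and still below that with 15d-PGJ2. The ferritin genes Fth1 and Ftl1 alone took 6.00% ± 0.0333 with 15d-PGJ2-PC, 7.37% ± 0.0941 with 15d-PGJ2 and 4.92% ± 0.0823 in controls, and FPKM shares of all other genes shift with them. With those 2 genes left out of the denominator, the ribosomal protein share was 12.5% with 15d-PGJ2-PC, 13.0% with 15d-PGJ2 and 12.3% in controls, or 12.509% in controls without replicate 3. The summed FPKM of 60S genes over that of 40S genes was 1.34 to 1.35 in all 9 libraries. A share of bulk RNA does not give the amount per cell, and fewer cells of a type and less RNA per cell cannot be told apart.

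**Figure D2:**
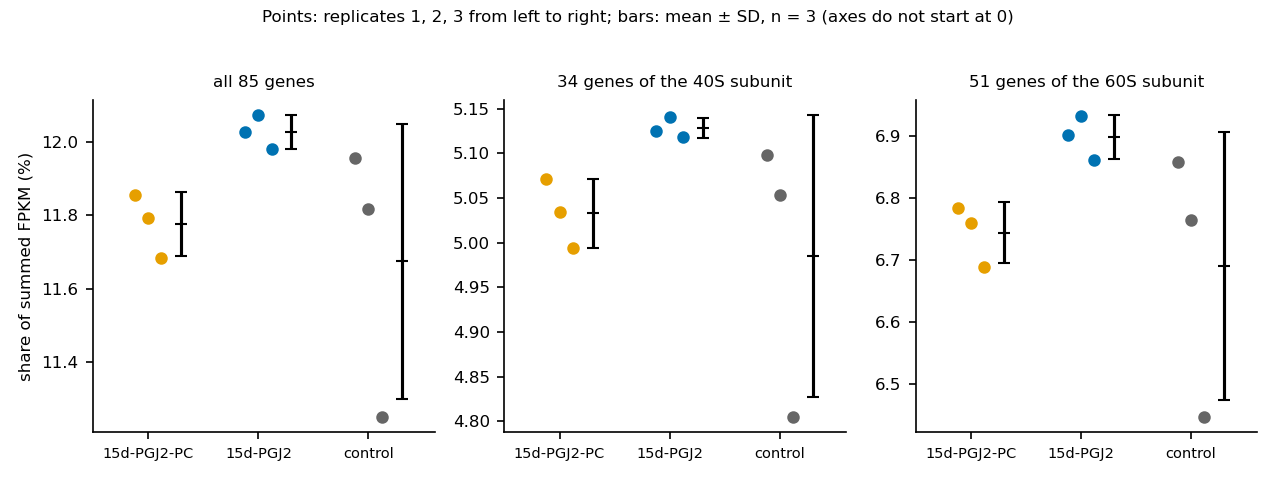
Share of summed FPKM, in percent, taken by all 85 genes, by the 34 genes of the 40S and by the 51 genes of the 60S subunit, with 1 point per library and bars for the mean and SD of 3 libraries. The libraries with 15d-PGJ2 lie between 11.981% and 12.074% for all 85 genes, above the other 6, and control replicate 3 lies lowest at 11.251%.

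Control replicate 3 stood apart from the other controls, and this touches each comparison with the control. It also touches the calls between the compounds, because the residual variance of a gene was fitted over all 9 libraries. Its ribosomal protein genes lay at a median of -0.10 on the log2 scale from the mean of the other 2 controls, while the median over all tested genes was 0.0065. It was the lowest control for 66 of 82 members, against 33.8% of all tested genes. Mitochondrial ribosomal protein genes lay at -0.072 in the same library and cytosolic partners with TOP mRNAs at -0.0096. The median coefficient of variation of a member was 2.18% with 15d-PGJ2-PC, 2.03% with 15d-PGJ2 and 4.72% in controls, while that of a tested gene was 7.26% with 15d-PGJ2-PC, 7.56% with 15d-PGJ2 and 7.52% in controls. The members' counts of calls, median fold changes and shares are therefore given with and without this library, as are the fold changes of named, called members that moved over 1.5 times without it.

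**Figure D3:**
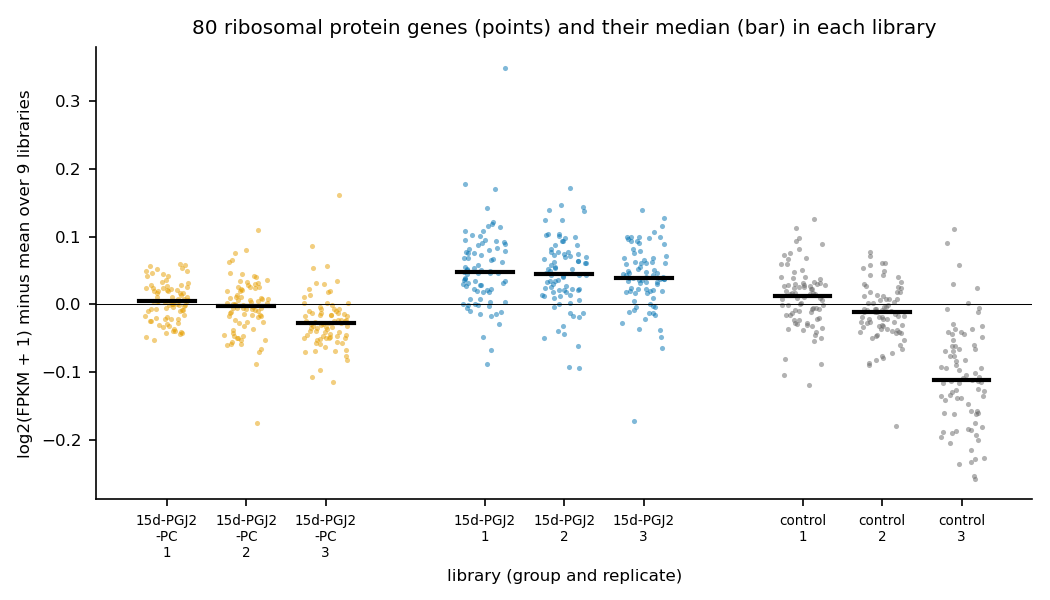
Difference of log2(FPKM + 1) from the mean over 9 libraries for 80 ribosomal protein genes (points; Rpl37rt and Rps4l, which vary most, are left out) and their median (bar) in each library. The medians are 0.0473, 0.0452 and 0.039 in the libraries with 15d-PGJ2, and -0.113 in control replicate 3.

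15d-PGJ2 against control gave the most changes among ribosomal protein genes. Of 82 tested members, 30 rose and 2 fell, with background shares of 22.2% rising and 25% falling among all 11309 tested genes (limma on log2(FPKM + 1), Benjamini-Hochberg adjusted p under 0.05). The shifts were small and mostly in one direction: the members' median log2 fold change was 0.080, with 71 above 0 and 11 below, against a median of -0.016 over all genes. Of all 11309 tested genes, 5452 lay above 0 and 5855 below. The largest rise was 1.24-fold. Of the 34 tested 40S genes 12 rose and 1 fell, and of the 48 tested 60S genes 18 rose and 1 fell, which are 35.3% and 37.5% rising. In 40 members all libraries with 15d-PGJ2 lay above all controls, and in 2 all lay below, with background shares of 26.3% and 28.8%.

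These counts depended in part on control replicate 3. Without it 25 members rose, all 25 among the 30, and 2 fell, 1 of them shared, and the median was 0.045. Of all genes, 20.5% rose and 23.2% fell in that fit. With FPKM rescaled to the sum outside the ribosomal protein genes 20 of 82 rose, against 19.8% of all genes, and the median was 0.044. Under quantile normalization the median was 0.044 with 30 rising, 20 of them the same genes, against 24% of all genes. The median stayed above 0 under these scalings and under median centring. With no trend of variance on level 11 of 82 rose, a smaller share than the 21.7% of all genes. Of the named members that passed, Rps2, Rpsa, Rps3, Rps19, Rpl36 and Rps27l passed under every alternative run, 6 of 16.

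**Figure D4:**
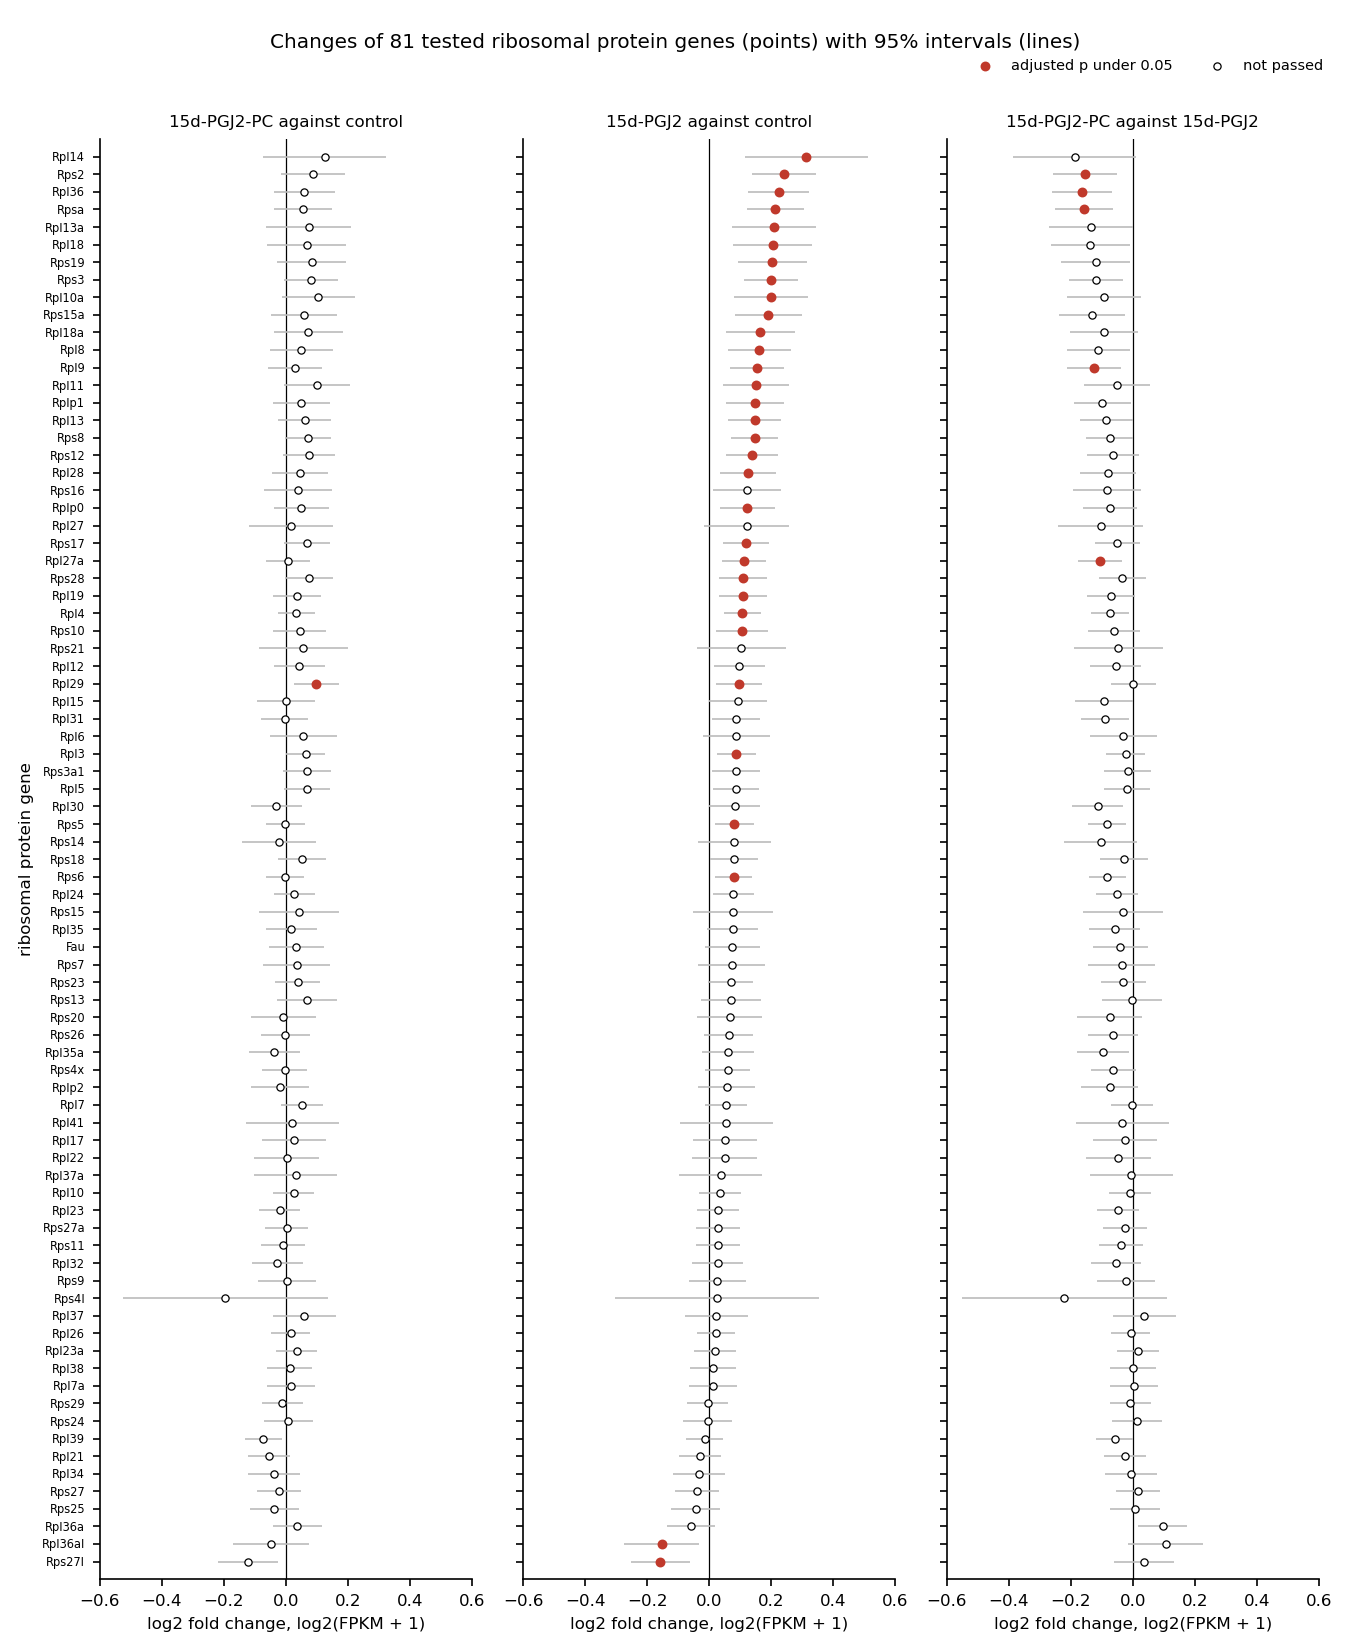
Log2 fold change of each of 81 tested ribosomal protein genes (all but Rpl37rt) in the 3 comparisons, with 95% intervals, ordered by 15d-PGJ2 against control. Filled points passed an adjusted p of 0.05: 30 rose and 2 fell in the middle panel, 1 rose in the left panel, and 5 fell in the right panel.

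Among 40S proteins, Rps2 (uS5), at the mRNA entry channel, had the largest rise with 15d-PGJ2. It read 1136, 1096 and 1127 FPKM with 15d-PGJ2-PC, 1280.4, 1239.8 and 1219 FPKM with 15d-PGJ2, and 1119, 1078 and 970.3 FPKM in controls. The 3 libraries with 15d-PGJ2 were above all 6 others, and 15d-PGJ2-PC and control overlapped. Its log2 fold change for 15d-PGJ2 against control was 0.24 (SE 0.047, adjusted p = 0.00152).

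Rpsa (uS2), a 40S protein also known as the laminin receptor precursor, read 487, 490.3 and 467 FPKM with 15d-PGJ2-PC, 543, 542 and 524 FPKM with 15d-PGJ2, and 476, 481 and 432 FPKM in controls. All 15d-PGJ2 libraries were again the highest. The log2 fold change against control was 0.21 (SE 0.042, adjusted p = 0.00172). Rps3 (uS3), a 40S protein that also acts in DNA repair and binds NF-κB, read 329, 305 and 312 FPKM with 15d-PGJ2-PC, 343, 341 and 342 FPKM with 15d-PGJ2, and 300.5, 309.8 and 284 FPKM in controls. The 15d-PGJ2 libraries agreed closely and lay above both other groups, with a log2 fold change against control of 0.20 (SE 0.039, adjusted p = 0.00164).

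Rps19, a 40S protein whose human gene is the one most often mutated in Diamond-Blackfan anaemia, averaged 725 ± 31.1 FPKM with 15d-PGJ2-PC, 787 ± 18.3 FPKM with 15d-PGJ2 and 684 ± 48.4 FPKM in controls (SD, n = 3 each). Its log2 fold change for 15d-PGJ2 against control was 0.20 (adjusted p = 0.00658). Rps6, the substrate of the S6 kinases, averaged 474 ± 7.09 FPKM with 15d-PGJ2-PC, 502 ± 10.1 FPKM with 15d-PGJ2 and 475 ± 5.85 FPKM in controls. The 15d-PGJ2 libraries were all above the controls, and the rise of 0.079 on the log2 scale had an adjusted p of 0.0345, which was lost in 10 of 19 alternatives.

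Among 60S proteins, Rpl36 (eL36) read 607, 628 and 596 FPKM with 15d-PGJ2-PC, 680.2, 704 and 667 FPKM with 15d-PGJ2, and 620.5, 590.4 and 548 FPKM in controls. Only the 15d-PGJ2 group stood clear of the others, with a log2 fold change against control of 0.22 (SE 0.044, adjusted p = 0.00174). Rpl13a, a 60S protein that leaves the ribosome in the GAIT complex to silence inflammatory mRNAs in human monocytes treated with interferon, read 793, 767 and 753 FPKM with 15d-PGJ2-PC, 885, 837 and 818 FPKM with 15d-PGJ2, and 795, 754 and 655 FPKM in controls. Its rise of 0.21 against control (SE 0.061, adjusted p = 0.0170) was lost in 2 of 19 alternatives, 1 of them the fit without 15d-PGJ2 replicate 1, and was 0.13 without control replicate 3 (adjusted p = 0.0251).

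Rpl10a, whose presence is known to vary between ribosomes in mouse embryonic stem cells, rose by 0.20 on the log2 scale with 15d-PGJ2 (adjusted p = 0.0108), a call lost in 1 of 19 alternatives. Rpl18, another 60S protein, rose by 0.21 (adjusted p = 0.0133), and the value without control replicate 3 was 0.12 (adjusted p = 0.00300). The stalk protein Rplp0 rose by 0.12 (adjusted p = 0.0263), or by 0.071 without control replicate 3 (adjusted p = 0.0251). Its call was lost in 8 of 19 alternatives, among them each fit without a 15d-PGJ2 library, and the values without 1 library ran between 0.071 and 0.15. Rplp1 rose by 0.15 (adjusted p = 0.0138), or by 0.094 without control replicate 3 (adjusted p = 0.0100), and its value became -0.048 under quantile normalization. Rplp2, the partner of Rplp1 in the stalk dimers, averaged 968 ± 20.2 FPKM with 15d-PGJ2-PC, 1019 ± 35.2 FPKM with 15d-PGJ2 and 981 ± 54.4 FPKM in controls, and its 15d-PGJ2 and control libraries overlapped (adjusted p = 0.300).

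Rpl5 and Rpl11 form with 5S ribosomal RNA the particle that binds Mdm2 when ribosome assembly fails. Rpl11 averaged 999 ± 30.6 FPKM with 15d-PGJ2-PC, 1035 ± 24.9 FPKM with 15d-PGJ2 and 934 ± 67.3 FPKM in controls, a rise of 0.15 with 15d-PGJ2 (adjusted p = 0.0249) that was lost in 6 of 19 alternatives and was 0.090 without control replicate 3 (adjusted p = 0.0434). Rpl5 averaged 285 ± 2.25 FPKM with 15d-PGJ2-PC, 288 ± 11.4 FPKM with 15d-PGJ2 and 272 ± 4.62 FPKM in controls. Both treated groups of Rpl5 lay above the controls without overlap, with adjusted p-values of 0.166 for 15d-PGJ2-PC and 0.0580 for 15d-PGJ2. Rpl3, which reaches toward the peptidyl transferase centre, averaged 598 ± 17.5 FPKM with 15d-PGJ2-PC, 607 ± 6.63 FPKM with 15d-PGJ2 and 572 ± 6.93 FPKM in controls, and it passed with 15d-PGJ2 at 0.087 (adjusted p = 0.0275), a call lost in 7 of 19 alternatives.

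The ubiquitin-type fusions differed little. Rps27a, made as a fusion with ubiquitin, averaged 691 ± 25.3 FPKM with 15d-PGJ2-PC, 703 ± 14.3 FPKM with 15d-PGJ2 and 689 ± 6.90 FPKM in controls (adjusted p = 0.956 for 15d-PGJ2-PC and 0.498 for 15d-PGJ2, each against control). Fau averaged 1384 ± 25.9 FPKM with 15d-PGJ2-PC, 1423 ± 15.8 FPKM with 15d-PGJ2 and 1353 ± 81.8 FPKM in controls. Its 15d-PGJ2 libraries lay above the controls, by 0.075 on the log2 scale (adjusted p = 0.149), and the value became -0.18 under quantile normalization. Rpl22, a 60S protein that mice can lack, averaged 93.1 ± 2.57 FPKM with 15d-PGJ2-PC, 96.2 ± 1.47 FPKM with 15d-PGJ2 and 93.0 ± 5.88 FPKM in controls (adjusted p = 0.412 with 15d-PGJ2).

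The 2 members that fell with 15d-PGJ2 were both paralogs. Rps27l, a paralog of Rps27 and a known p53 target, read 160.4, 172 and 152 FPKM with 15d-PGJ2-PC, 157, 158 and 157 FPKM with 15d-PGJ2, and 178, 174 and 175 FPKM in controls. Both treated groups lay below every control. The log2 fold change with 15d-PGJ2 was -0.16 (SE 0.043, adjusted p = 0.0113), and the value with 15d-PGJ2-PC was -0.12 (adjusted p = 0.0588). Rps27l made up 18.5%, 20.2% and 18.5% of summed Rps27 and Rps27l FPKM with 15d-PGJ2-PC, 18.3%, 19.2% and 19.0% with 15d-PGJ2, and 20.0%, 20.0% and 20.4% in controls.

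Rpl36al, a paralog of Rpl36a, read 278, 296 and 298 FPKM with 15d-PGJ2-PC, 269, 287 and 254 FPKM with 15d-PGJ2, and 313, 279 and 309.5 FPKM in controls. The 15d-PGJ2 and control libraries overlapped, and its log2 fold change of -0.15 (SE 0.055, adjusted p = 0.0404) was lost in 11 of 19 alternatives. Rpl36a itself averaged 388 ± 15.7 FPKM with 15d-PGJ2-PC, 362 ± 9.64 FPKM with 15d-PGJ2 and 377 ± 5.77 FPKM in controls, with an adjusted p of 0.197 for 15d-PGJ2. Rps25, known for its part in translation from internal ribosome entry sites, averaged 494 ± 7.69 FPKM with 15d-PGJ2-PC, 492 ± 6.78 FPKM with 15d-PGJ2 and 507 ± 24.5 FPKM in controls (adjusted p = 0.346 for 15d-PGJ2). Rps4l averaged 5.95 ± 0.631 FPKM with 15d-PGJ2-PC, 7.09 ± 0.576 FPKM with 15d-PGJ2 and 7.08 ± 1.95 FPKM in controls, and the 95% interval of its log2 change with 15d-PGJ2 was -0.30 to 0.36.

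15d-PGJ2-PC against control gave 1 rise and no fall among the 82 tested members by limma, with background shares of 13.8% rising and 14.1% falling. At an unadjusted limma p under 0.05, 2 members lay higher and 2 lower, but no count over all genes was made at that threshold, so these have no background. The median log2 fold change was 0.034, with 58 members above 0, against -0.0038 over all genes, of which 5576 of 11309 lay above 0. Without control replicate 3 the members' median became -0.0074. In that fit 0 members were called as rising and 1 as falling, against 12.3% of all genes in each direction. The member that rose was Rpl29, a small 60S protein also described as a heparin-binding protein. It read 471, 464 and 458 FPKM with 15d-PGJ2-PC, 463, 462 and 466 FPKM with 15d-PGJ2, and 443, 445 and 413 FPKM in controls. Both treated groups lay above all controls and at about the same level. The log2 fold change was 0.098 with 15d-PGJ2-PC (SE 0.033, adjusted p = 0.0483) and 0.096 with 15d-PGJ2 (adjusted p = 0.0334), and these calls were lost in 14 and 10 of 19 alternatives. Among the fits that left out 1 library, that with 15d-PGJ2-PC passed only without control replicate 2. Without control replicate 3 the values were 0.063 with 15d-PGJ2-PC (adjusted p = 0.0918) and 0.061 with 15d-PGJ2 (adjusted p = 0.0670). Groups without overlap were rare: Rpl3, Rpl4, Rpl5 and Rpl29 lay above the controls, 4 members in all against a background of 20.5%, and Rpl21, Rpl39 and Rps27l lay below them, 3 members against 21.3%.

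Rpl39, which lines the exit tunnel for the growing chain, read 633, 638 and 627 FPKM with 15d-PGJ2-PC, 674, 646 and 656 FPKM with 15d-PGJ2, and 657, 660.1 and 679 FPKM in controls. The 15d-PGJ2-PC libraries were the lowest of the 9, with a log2 difference from control of -0.073 (adjusted p = 0.0700). Rpl21 averaged 231 ± 2.69 FPKM with 15d-PGJ2-PC, 235 ± 6.56 FPKM with 15d-PGJ2 and 239.6 ± 3.28 FPKM in controls (adjusted p = 0.224 for 15d-PGJ2-PC).

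For most members the comparison with 15d-PGJ2-PC bounds the difference rather than leaving it unknown. The 95% interval of 79 of 82 members lay within 1.2-fold of the control in either direction, as did that of 23.5% of all tested genes. The members outside were Rpl14, Rpl37rt and Rps4l. With 15d-PGJ2 the interval lay within 1.2-fold for 68 members, against 16.4% of all genes, and the estimate itself for 80. Rps2 is one of the 14 members whose interval with 15d-PGJ2 passed that bound, at 0.14 to 0.34 on the log2 scale.

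The 2 compounds were compared at the same dose and time, 1 µM and 6 h, as a single pair. Of 82 tested members, none rose and 5 fell with 15d-PGJ2-PC against 15d-PGJ2 by limma, with background shares of 12.3% rising and 8.3% falling. At an unadjusted limma p under 0.05, 1 lay higher and 17 lower, but no count over all genes was made at that threshold, so these have no background. The median log2 difference was -0.054, against 0.016 over all genes, and 71 members were below 0, as were 5279 of all 11309 tested genes. The 5 were Rpl36 (-0.16, SE 0.044, adjusted p = 0.0239), Rpsa (-0.16, SE 0.042, adjusted p = 0.0232), Rps2 (-0.15, SE 0.047, adjusted p = 0.0401), Rpl9, a 60S protein near the factor-binding site (-0.12, adjusted p = 0.0459), and Rpl27a, another 60S protein (-0.10, adjusted p = 0.0430). Each of these calls was lost in 6 to 10 of 19 alternatives. In 38 members all 15d-PGJ2-PC libraries lay below all 15d-PGJ2 libraries, with a background of 16.7%, and in 1, Rpl36a, they lay above, with a background of 20.5%.

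In all 5 members that fell with 15d-PGJ2-PC against 15d-PGJ2, the 15d-PGJ2-PC and control libraries overlapped. Rpl27a averaged 418 ± 7.06 FPKM with 15d-PGJ2-PC, 450 ± 10.2 FPKM with 15d-PGJ2 and 416 ± 13.2 FPKM in controls, and Rpl9 averaged 624 ± 6.76 FPKM with 15d-PGJ2-PC, 680.5 ± 20.3 FPKM with 15d-PGJ2 and 612 ± 31.9 FPKM in controls. The count of 5 was 0 with no filter or with no trend of variance on level, 21 without control replicate 3, and 0 to 4 without any other library. The shares of all genes falling in these fits were 4.76%, 7.49%, 8.56% and 5.94% to 8.13%, in that order. The median log2 difference was -0.054 with and without control replicate 3. A control library enters this comparison only through the shared residual variance, not through the difference itself. The 95% interval of the difference between compounds lay within 1.2-fold for 77 of 82 members. Rpl29 gives the narrow end: its difference was 0.0018, with an interval of -0.071 to 0.075.

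Several members have pseudogene or retrogene copies in the table. Where reads match both, the values depend on how the authors' counting split them, and this was not tested. Rpl14, a 60S protein, had the largest rise with 15d-PGJ2. It read 186, 170.1 and 215 FPKM with 15d-PGJ2-PC, 245, 197 and 208 FPKM with 15d-PGJ2, and 177, 169 and 174 FPKM in controls. Its pseudogene copy Rpl14-ps1 was higher than Rpl14 in every library, at 289.8, 324 and 261 FPKM with 15d-PGJ2-PC, 292, 342 and 316 FPKM with 15d-PGJ2, and 291, 313 and 275 FPKM in controls.

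Within the treated groups Rpl14 was high where its copy was low, and their sum varied less than Rpl14. In controls the sum varied more than Rpl14. The sum was 476, 494 and 476 FPKM with 15d-PGJ2-PC, 537, 538 and 524 FPKM with 15d-PGJ2, and 468, 483 and 449.6 FPKM in controls. The coefficient of variation of Rpl14 was 12% with 15d-PGJ2-PC, 11.6% with 15d-PGJ2 and 2.16% in controls, and that of the sum was 2.24% with 15d-PGJ2-PC, 1.46% with 15d-PGJ2 and 3.57% in controls. On the sum, the log2 fold change with 15d-PGJ2 against control was 0.19 (SE 0.033, adjusted p = 0.000625) in place of 0.31 (SE 0.090, adjusted p = 0.0146) for Rpl14 alone, whose call was lost without 15d-PGJ2 replicate 1, at 0.22. Between the compounds it was -0.15 (adjusted p = 0.00885) in place of -0.19 (adjusted p = 0.176).

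**Figure D5:**
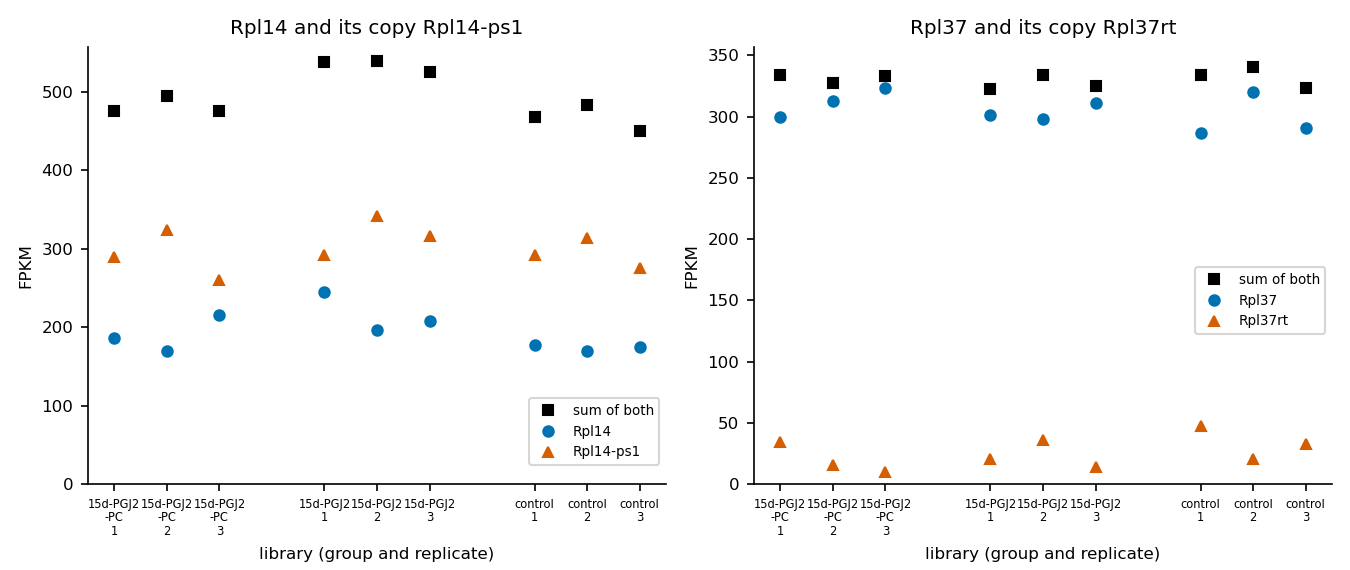
FPKM of Rpl14, its copy Rpl14-ps1 and their sum (left), and of Rpl37, its retrogene Rpl37rt and their sum (right), in each of 9 libraries. The Rpl14 sum lies at 524 to 538 FPKM with 15d-PGJ2, above the other 6 libraries, and the Rpl37 sum at 322 to 340 FPKM in all groups.

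Within each group Rpl37 was highest in the library where its retrogene Rpl37rt was lowest. Rpl37rt read 34.6, 15.5 and 9.52 FPKM with 15d-PGJ2-PC, 20.7, 35.7 and 14.2 FPKM with 15d-PGJ2, and 47.3, 20.2 and 32.4 FPKM in controls, and all groups overlapped. Its log2 values against control, -0.82 with 15d-PGJ2-PC and -0.50 with 15d-PGJ2, were the lowest of all members, with adjusted p-values of 0.212 and 0.397. The sum of both genes was 322 to 340 FPKM, with a log2 fold change of -0.0036 for 15d-PGJ2-PC and -0.023 for 15d-PGJ2. Rps15a, a 40S protein, passed with 15d-PGJ2 on its own at 0.19 (adjusted p = 0.00779), whereas its sum with the copies Rps15a-ps4 and Rps15a-ps6, which hold most of the FPKM, gave 0.10 (adjusted p = 0.103). Rps19 summed with its copy, which read at most 3.63 FPKM, kept its rise at 0.21 (adjusted p = 0.00631). Rpl31 passed only as a sum, at 0.096 (adjusted p = 0.03002).

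Members were also grouped by level and by start sequence, as a description. With 15d-PGJ2 the median log2 fold change was 0.076 for the 15 members averaging at least 1000 FPKM, 0.081 for the 45 between 500 and 1000 FPKM, 0.086 for the 18 between 100 and 500 FPKM, and 0.038 for the 4 below 100 FPKM, which ranged from -0.50 to 0.19. Of 35 tested members with a run of at least 8 pyrimidines in the window around a start, 14 rose and 1 fell with 15d-PGJ2, at a median of 0.081. Of 26 without such a run, 7 rose and 1 fell, at a median of 0.077. The runs need not begin at the start, so these groups do not separate TOP mRNAs from others. Start sites were not given for the other 21, of which 9 rose.

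Partner genes whose mRNAs also carry TOP motifs were described beside the ribosomal proteins. With 15d-PGJ2-PC 6 of 29 rose and none fell (20.7% and 0%), at a median of 0.028, and with 15d-PGJ2 14 rose and 2 fell (48.3% and 6.9%), at a median of 0.11. The background over all tested genes for these and the following lists was 13.8% rising and 14.1% falling with 15d-PGJ2-PC, and 22.2% rising and 25% falling with 15d-PGJ2. Eef1g, a subunit of the elongation factor that reloads eEF1A, averaged 328 ± 1.60 FPKM with 15d-PGJ2-PC, 378 ± 7.07 FPKM with 15d-PGJ2 and 284 ± 6.74 FPKM in controls, a rise of 0.21 and of 0.41 on the log2 scale against control (adjusted p = 0.000358 and 8.04e-07). Nap1l1, a histone chaperone with a TOP mRNA, rose by 0.30 with 15d-PGJ2-PC and by 0.58 with 15d-PGJ2 (adjusted p = 0.000293 and 8.08e-07). Rack1, a scaffold on the head of the 40S subunit, rose by 0.11 with 15d-PGJ2 (adjusted p = 0.0169), a call lost in 3 of 19 alternatives.

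Mitochondrial ribosomal protein genes, which serve the separate ribosome of the mitochondrion, had 5 of 77 rising and 2 falling with 15d-PGJ2-PC at a median of 0.034, and 14 rising and 6 falling with 15d-PGJ2 at 0.067. The shares rising, 6.49% with 15d-PGJ2-PC and 18.2% with 15d-PGJ2, were below the backgrounds of 13.8% and 22.2%, as were the shares falling, 2.6% and 7.79% against 14.1% and 25%. Mrps6 averaged 13.9 ± 0.843 FPKM with 15d-PGJ2-PC, 28.9 ± 3.38 FPKM with 15d-PGJ2 and 9.83 ± 0.666 FPKM in controls. On the log2 scale it rose by 0.46 with 15d-PGJ2-PC and by 1.46 with 15d-PGJ2 (adjusted p = 0.00278 and 2.39e-07). Mrpl38 rose by 0.64 with 15d-PGJ2-PC and by 1.23 with 15d-PGJ2 (adjusted p = 4.36e-05 and 9.82e-08). Mrpl33 fell with 15d-PGJ2-PC, with a log2 fold change of -0.26 (adjusted p = 0.00590).

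Of 55 ribosome biogenesis genes, 9 rose and 2 fell with 15d-PGJ2-PC at a median of 0.056, and 18 rose and 2 fell with 15d-PGJ2 at 0.11. The share rising was 16.4% with 15d-PGJ2-PC, near the background of 13.8%, and 32.7% with 15d-PGJ2 against 22.2%, and 3.64% fell with each compound, against 14.1% and 25%. Gnl3 (nucleostemin), a nucleolar GTPase, averaged 21.0 ± 1.51 FPKM with 15d-PGJ2-PC, 27.0 ± 1.76 FPKM with 15d-PGJ2 and 13.8 ± 0.362 FPKM in controls, a rise of 0.57 and of 0.92 against control (adjusted p = 0.000122 and 1.20e-06). Eif6, which keeps new 60S subunits from joining too early, rose by 0.40 with 15d-PGJ2 (adjusted p = 8.94e-05), while Nmd3, the adaptor that exports 60S subunits from the nucleus, fell by 0.60 (adjusted p = 7.02e-05). Between compounds, Nmd3 was higher with 15d-PGJ2-PC, at 23.1 ± 1.19 FPKM against 16.6 ± 1.77 FPKM with 15d-PGJ2 (log2 difference 0.46, adjusted p = 0.00170).

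Of 28 regulators of ribosomal protein synthesis, 7 rose and 3 fell with 15d-PGJ2-PC (25% and 10.7%, against 13.8% and 14.1% of all genes), and 11 rose and 6 fell with 15d-PGJ2 (39.3% and 21.4%, against 22.2% and 25%). The shares falling were near the background. Ddit4 (REDD1), an inhibitor of mTORC1, averaged 11.6 ± 0.564 FPKM with 15d-PGJ2-PC, 6.99 ± 1.63 FPKM with 15d-PGJ2 and 22.1 ± 1.51 FPKM in controls. It fell in both treated groups, with log2 changes of -0.88 for 15d-PGJ2-PC and -1.55 for 15d-PGJ2 (adjusted p = 0.000565 and 3.40e-06). Eif4ebp1, a repressor of cap-dependent translation that mTORC1 inactivates, rose by 0.31 with 15d-PGJ2-PC and by 0.60 with 15d-PGJ2 (adjusted p = 0.00337 and 1.48e-05). Larp4, which protects poly(A) tails including those of ribosomal protein mRNAs, rose by 0.52 with 15d-PGJ2-PC and by 0.65 with 15d-PGJ2 (adjusted p = 0.000297 and 2.70e-05). Mdm2 rose by 0.52 with 15d-PGJ2-PC (adjusted p = 0.000368).

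Of 15 chaperones and import factors for ribosomal proteins, 4 rose and 1 fell with 15d-PGJ2-PC (26.7% and 6.67%, against 13.8% and 14.1% of all genes), and 7 rose and none fell with 15d-PGJ2 (46.7% and 0%, against 22.2% and 25%). The importins Tnpo1 and Ipo7, which carry ribosomal proteins into the nucleus, rose by 0.48 and 0.41 with 15d-PGJ2 (adjusted p = 8.36e-05 and 0.000206). With 15d-PGJ2-PC they rose by 0.32 and 0.30 (adjusted p = 0.00294 and 0.00310). Tsr2, the chaperone of Rps26, rose by 0.53 with 15d-PGJ2-PC and by 0.60 with 15d-PGJ2 (adjusted p = 0.00274 and 0.000656). Between the compounds Tnpo1, Ipo7 and Tsr2 did not pass (adjusted p = 0.0953, 0.247 and 0.715). Of 14 genes that handle stalled ribosomes, 4 rose and 1 fell with 15d-PGJ2-PC (28.6% and 7.14%, against 13.8% and 14.1% of all genes), and 5 rose and 2 fell with 15d-PGJ2 (35.7% and 14.3%, against 22.2% and 25%). Pelo, which splits stalled ribosomes, averaged 12.9 ± 1.01 FPKM with 15d-PGJ2-PC, 14.5 ± 1.29 FPKM with 15d-PGJ2 and 6.75 ± 0.165 FPKM in controls, a rise of 0.84 and of 0.99 (adjusted p = 2.47e-05 and 2.33e-06). Ascc2, part of the complex that pulls collided ribosomes apart, rose by 0.32 with 15d-PGJ2-PC and by 0.49 with 15d-PGJ2 (adjusted p = 0.00195 and 5.28e-05). Ltn1, the ligase that marks stalled chains, fell by 0.33 with 15d-PGJ2-PC and by 0.31 with 15d-PGJ2 (adjusted p = 0.00304 and 0.00217).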

How the data were processed

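RNA from 9 libraries was sequenced, 3 each with 15d-PGJ2-PC, 15d-PGJ2 and medium, with Trizol extraction and TruSeq RNA libraries per the labels' protocols. The authors deposited FPKM values per gene, per the file headers. Per the submitters' processing notes, reads were aligned with BWA to mm10. The counting tool is not given in the sources used here. No further scaling was applied to the deposited FPKM values, and every sample column entered the fit. A spreadsheet had turned 23 symbols into dates, which were restored from the Entrez number. Gene names, coordinates and start sites come from RefSeq on GRCm38.p6, the assembly that mm10 names, and lengths from GENCODE through the RefSeq accession for 17704 genes, 84 of them members.

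The test kept the 11309 genes, 82 members among them, that reached 1 FPKM in 3 or more libraries. limma 3.58.1 in R 4.3.3 was fitted on log2(FPKM + 1) over all 9 libraries with a trend of variance on level, 2-sided, with Benjamini-Hochberg adjustment over all tested genes of a comparison and a threshold of 0.05. A pseudocount of 1 understates the change of low genes. The 5 largest rises and the 5 largest falls per comparison, the 3 highest and 3 lowest levels and a list of functionally described members were named. Of each partner list, some of the genes with the smallest p were named. Members and lists were chosen with earlier results of these data known, so lists get counts and medians and no test. Depth was estimated from the steps between low FPKM values. The fit was tested on simulated data. Tables were handled in Python 3.11.15.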

Additional observations from a re-analysis of the deposited data

How the results depend on the processing

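Limma calls were repeated under 19 to 20 alternatives per gene. The direction of the members' median in 15d-PGJ2 against control and in 15d-PGJ2-PC against 15d-PGJ2 held under all that could move it. Calls near the threshold did not hold. No trend, only 6 libraries, the replicate block or leaving out a library of the third group could not move this median. The filter of 5 FPKM dropped no member. Under the other alternatives the median was 0.0441 to 0.106 for 15d-PGJ2 against control and -0.0759 to -0.0232 for 15d-PGJ2-PC against 15d-PGJ2. For 15d-PGJ2-PC against control, 0 members rose with no filter, median centring, scaling to summed FPKM outside the members or no trend of variance. The same count was found with only the 6 libraries compared or without replicate 3 of each group. Of all genes, 7.95% to 13% rose in these fits. With quantile normalization 8 rose, against 14.1% of all genes. With a filter of 5 FPKM 1 fell, against 17.6%. With median centring or scaling outside the members 2 fell, against 16% and 15%, and with quantile normalization 4, against 13.7%. For 15d-PGJ2 against control, 11 of 82 members rose with no trend, a smaller share than the 21.7% of all genes. Without replicate 3 of each group 19 rose, against 17.9% of all genes. In this comparison 1 fell with no filter, no trend, only 6 libraries or without replicate 3 of each group. The shares of all genes falling were 16.7%, 24.6%, 24.4% and 20.3% in that order. With quantile normalization 4 fell, against 23.3%. The median was 0.0441 with quantile normalization and 0.0444 with scaling outside the members. For 15d-PGJ2-PC against 15d-PGJ2, 1 rose with quantile normalization or scaling outside the members, against 10.9% and 13.4% of all genes. There 0 fell with no filter or no trend, against 4.76% and 7.49% of all genes. With scaling outside the members 3 fell, with quantile normalization 9, with median centring 10 and with only 6 libraries 12. The shares of all genes falling in those fits were 7.15%, 9.81%, 9.68% and 7.87%. Over all genes this comparison called 1509 (926 rising, 583 falling) without replicate 3 of each group. Quantile normalization gave Rpl41 -0.28 for 15d-PGJ2-PC and -0.24 for 15d-PGJ2, and for 15d-PGJ2 gave Fau -0.18 and Rplp1 -0.048. Without Fth1 and Ftl1 the share was 12.529% with 15d-PGJ2-PC, 12.984% with 15d-PGJ2 and 12.28% in controls. Leaving out each library in turn, 0 to 1 rose and 0 to 1 fell with 15d-PGJ2-PC against control. The members' median was -0.0074 to 0.053, and Rpl41 lay at -0.080 to 0.083. Of all genes, 11.3% to 13.6% rose and 11.2% to 14.2% fell in these fits. With 15d-PGJ2 against control 20 to 36 members rose, against 19.3% to 21.9% of all genes. There 1 to 2 fell, against 22.4% to 24.9%. With 15d-PGJ2-PC against 15d-PGJ2 the count falling was 0 to 21, against 5.94% to 8.56% of all genes. Leaving out a control left the log2 differences between the compounds unchanged and altered only the fitted variance behind their calls. The cause of the other shifts was not tested. Summing members with their copies and leaving out replicate 3 of each group were chosen after seeing the data. Replicate numbers were not found to pair the libraries: same-numbered libraries deviated together at -0.0434 to 0.0523 in 9 pairs, none over 0.1. With the replicate number as a block, 35 members rose and 1 fell for 15d-PGJ2 against control, against 21.8% and 24.8% of all genes. With the same block 1 rose for 15d-PGJ2-PC against control, against 13.3%, and 7 fell for 15d-PGJ2-PC against 15d-PGJ2, against 7.84%.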

Other observations

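Among the genes left out of the set, Rps19bp1, which encodes a binding partner of Rps19, rose with both compounds against control, by 0.32 on the log2 scale with 15d-PGJ2-PC (SE 0.070, adjusted p = 0.00551) and by 0.31 with 15d-PGJ2 (SE 0.070, adjusted p = 0.00408; limma). The like genes gave smaller values: Rpl22l1 was at -0.041 with 15d-PGJ2-PC (adjusted p = 0.748) and 0.075 with 15d-PGJ2 (adjusted p = 0.458), and Rpl7l1 at -0.017 (adjusted p = 0.841) and -0.073 (adjusted p = 0.262) in those 2 comparisons.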
